A study of Mus musculus with 6 samples.

Results

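The genes described here encode the machinery of DNA replication and S phase. They are 51 mouse genes fixed by name, from origin licensing, the replicative helicase, the polymerases, the sliding clamp, fork protection and nucleotide supply, and each was matched to the deposited table by its Ensembl identifier. The table holds 22933 genes, and 50 of the 51 were abundant enough to test. RNA was measured in mouse embryonic stem cells with floxed alleles of Ezh2 (Ezh2 fl/fl), Ezh2 being the gene of the catalytic subunit of Polycomb repressive complex 2. Untreated Ezh2 fl/fl cells (3 libraries) were compared with cells of the same line given 4-hydroxy-tamoxifen at 800 nM for 96 h to delete the gene (3 libraries, labelled Ezh2 KO), with RNA taken 4 days after treatment. Both groups grew on gelatin in KO-DMEM that held leukaemia inhibitory factor (1000 U/ml), FCS (10%), knockout serum replacement (5%), antibiotics, L-glutamine, 2-mercaptoethanol and nonessential amino acids. Only the second group received the drug, so its own action and the deletion cannot be told apart. The recombinase and its driver, the number of clones, the exons that are floxed and whether replicates were separate cultures are not given in the sources used here. P-values therefore measure the spread between these libraries, which may be technical.

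Replication starts at origins bound by the origin recognition complex (Orc1 to Orc6), onto which Cdc6 and Cdt1 load the ring of Mcm2 to Mcm7 while Gmnn (geminin) restrains Cdt1. Cdc45 and the GINS proteins turn the loaded ring into the active helicase, and polymerases alpha, delta and epsilon copy the strands with the clamp Pcna and its loader. Many of these genes are transcribed at the border of G1 and S phase under E2F factors, and mouse embryonic stem cells, which have a short G1, express them at high levels.

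Promoter sequence shows what part of the group shares beyond function, namely 8-base forms of the E2F site. The forms searched on both strands were TTTCCCGC, TTTCGCGC, TTTGCCGC and TTTGGCGC. The stretches printed below are RefSeq promoter sequences of GRCm38.p6, 100 bases each, on the strand of the gene and 5′ to 3′, with matches in capitals. Mcm6 and Mcm5 are shown because a pair of matches overlaps head to head in each, and Orc1 and Dtl because a single match lies within 50 bases of the start. Pold2 and Chaf1b are shown because they hold none, and both had an unadjusted p under 0.05 in the comparison of the groups.
Mcm6, chr1:128359745-128359844, minus strand: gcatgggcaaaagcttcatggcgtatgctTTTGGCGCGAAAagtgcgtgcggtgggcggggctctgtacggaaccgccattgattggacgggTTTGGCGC
Mcm5, chr8:75109319-75109418, plus strand: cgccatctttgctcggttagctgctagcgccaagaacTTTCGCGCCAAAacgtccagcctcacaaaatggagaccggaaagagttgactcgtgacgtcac
Orc1, chr4:108579335-108579434, plus strand: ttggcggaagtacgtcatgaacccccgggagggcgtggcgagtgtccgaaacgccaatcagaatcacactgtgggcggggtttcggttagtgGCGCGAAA
Dtl, chr1:191575545-191575644, minus strand: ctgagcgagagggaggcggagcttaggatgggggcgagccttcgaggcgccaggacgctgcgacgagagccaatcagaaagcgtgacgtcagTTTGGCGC
Pold2, chr11:5878297-5878396, minus strand: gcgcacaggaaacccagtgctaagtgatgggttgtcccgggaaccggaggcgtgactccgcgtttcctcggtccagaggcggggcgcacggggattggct
Chaf1b, chr16:93883801-93883900, plus strand: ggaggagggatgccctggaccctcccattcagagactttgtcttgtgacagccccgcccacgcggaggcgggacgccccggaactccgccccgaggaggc

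Whole reads could be solved from the deposited normalized values, as described under the processing, and came to 2334418 to 5689696 per library. The 10 most abundant genes took 20.2% to 36.8% of them. Ezh2, the targeted gene, had normalized values of 4165, 3620.4 and 3483 without tamoxifen. With it they were 2258, 2559 and 2609. All 3 tamoxifen values lay below all untreated ones, the log2 difference being -0.60 (limma adjusted p 0.195, and p 0.1 by an exact two-sided permutation test, which cannot give a smaller one here). On recovered reads the difference was -0.40, and with reads scaled to the total count it was -0.13. The values count the whole gene and the floxed exons are not known, so they do not check the deletion. The stem cell markers were present in both groups, at 2054 to 2168 RPM (recovered reads per 1000000, scaled for depth) summed over 12 genes in the untreated libraries and 1867 to 2030 after tamoxifen. The tamoxifen sums all lay below the untreated ones on this scale. On deposited values 7 of the 12 genes had a log2 difference below 0 and 5 above it. With reads scaled to the total count, 2 were below 0 and 10 above it, and the median of all genes was 0.25.

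After tamoxifen most replication genes had slightly lower values, and none passed the test over all genes. Of the 50 tested, 37 (74%) had a log2 fold change below 0 and 13 above it, with a median of -0.13. Over all 17427 genes tested 50.6% were below 0 and the median was -0.0037. Single genes ranged from -0.98 for Pold3 to 0.26 for Gins3. Each fold change is the tamoxifen mean less the untreated mean of log2(value + 1), where the added 1 understates changes of low genes. In bulk RNA, fewer cells in S phase and less RNA in each such cell cannot be told apart.

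None of the 50 was called by limma at a Benjamini-Hochberg adjusted p under 0.05, against 34 of all genes (0.195%; 0.0689% for lower values), and the smallest adjusted p was 0.295, for Pold2. At an unadjusted p under 0.05 there were 6 members with lower values (12%) and 0 with higher values, beside 3.99% and 5.34% of all genes (9.34% in either direction). The 6 were Orc2, Orc5, Pold1, Pold2, Chaf1b and Wdr76. The 3 tamoxifen values lay below all 3 untreated values for 8 members (16%), the same 6 with Pold3 and Timeless, beside 7.33% of all genes. They lay above all untreated values for 1 member, Rrm2, beside 7.92%. The 95% interval of the fold change crossed 0 for 44 of the 50.

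**Figure D1:**
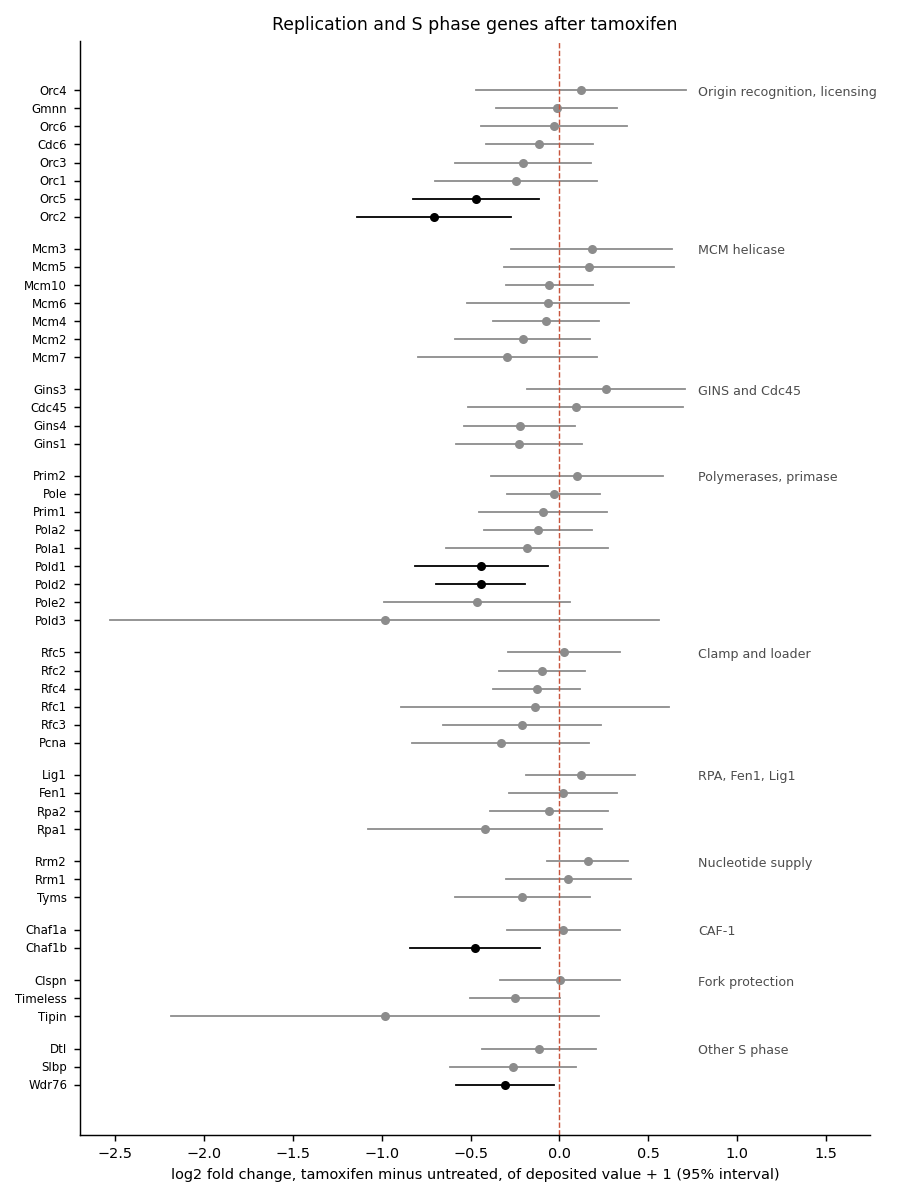
Log2 fold change (tamoxifen minus untreated, deposited value + 1) of 49 replication and S phase genes in 10 role groups, with 95% intervals from limma. Black marks an unadjusted p under 0.05 and the dashed line is the median of all genes tested. Most points lie left of the line, and Pold3 and Tipin have the widest intervals shown. Cdt1 is left off because its interval runs from -6.91 to 6.26, and Gins2 was not tested.

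Among the licensing genes 8 of 9 had lower values, with a median log2 fold change of -0.20. Orc2, a core subunit of the origin recognition complex, had normalized values of 682, 662 and 583 in the untreated libraries. They were 370.2, 467 and 351 after tamoxifen. The groups do not overlap, and the mean went from 642 ± 52.0 to 396 ± 62.4 (SD, n = 3 each), and the log2 fold change was -0.70 ± 0.18 (SE, limma p 0.00697, adjusted p 0.312). Orc2 rests on 41 to 158 reads per library, and on reads scaled for depth its groups overlap, with a log2 fold change of -0.46. Of its annotated exon bases, 29.8% also lie in exons of Nif3l1 on the opposite strand. The library kit was directional per the labels, but the strand setting used in counting is not given in the sources used here.

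Orc5, another subunit, had values of 2784, 3747 and 3463 in untreated cells and 2365, 2180.1 and 2628 after tamoxifen. The lowest untreated value lay just above the highest tamoxifen one, and the log2 fold change was -0.47 ± 0.15 (limma p 0.0169, adjusted p 0.434). On recovered reads it was -0.20 and the groups overlap. The other 4 origin recognition genes and Cdc6 ran from -0.24 (Orc1) to 0.12 (Orc4), each with an interval across 0. Gmnn, the inhibitor of licensing, had means of 3075 ± 288 and 3052 ± 455 (SD, n = 3), and its fold change of -0.02 had an interval from -0.36 to 0.33. Cdt1 could not be followed: its reads numbered 111, 1 and 4 without tamoxifen and 2, 11 and 1 with it, so 1 untreated library held nearly all of its reads.

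The helicase genes lay among the most abundant of the group and were uneven between untreated libraries. Of Mcm2 to Mcm7, 4 had a log2 fold change below 0 and 2 above it, from -0.29 (Mcm7) to 0.18 (Mcm3), and all intervals crossed 0. The deposited scale is coarse at such levels. Mcm2 had 42758 in untreated replicate 1 and 42758, 42757 and 42759 in the tamoxifen libraries, while untreated replicates 2 and 3 were at 50272 and 55836. The near-identical values are 1 shared step of the normalization, since the reads behind them differ.

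On recovered RPM, scaled by the median ratio over genes, Mcm2 had 324, 495 and 673 in the untreated libraries and 419, 359.9 and 381 after tamoxifen. The untreated libraries thus span both sides of the tamoxifen range. Mcm3 had 347, 515 and 391 before and 381, 338 and 356 after. Mcm4 was the steadiest, at 246, 227 and 204 before and 221, 199.7 and 195 after.

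Mcm5 had 317, 574 and 476 RPM untreated and 397, 354 and 366 after tamoxifen. Mcm6 had 324, 538 and 391 untreated and 289, 297 and 311 after tamoxifen, so it was the member of the ring whose groups did not overlap on this scale. Mcm7 had 253, 344 and 480.3 untreated and 350.5, 207 and 226 after tamoxifen. In 5 of the 6 genes the highest library was an untreated replicate 2 or 3. The log2 fold changes on recovered reads were all below 0, from -0.45 (Mcm6, limma p 0.0904, and Mcm7, p 0.162) to -0.13 (Mcm4, p 0.502), whereas on deposited values Mcm3 (0.18) and Mcm5 (0.17) lay above 0.

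Per kilobase of transcript, the mean of Mcm2 to Mcm7 was 86, 127 and 126 RPM per kb in the untreated libraries and 99.1, 83.3 and 87.2 after tamoxifen. The group means were 113 ± 23.5 and 89.9 ± 8.21 (SD, n = 3), with untreated replicate 1 inside the range of the tamoxifen libraries. Within the ring, Mcm2 stood at 124% ± 25.0 of the mean of the 6 genes before and 123% ± 2.04 after, and Mcm4 was the least abundant, at 58.1% ± 18.9 and 63.8% ± 2.62. Mcm10, which helps to activate the helicase, was at -0.06 on deposited values and, by recovered reads, at -0.35 (limma p 0.0908).

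**Figure D2:**
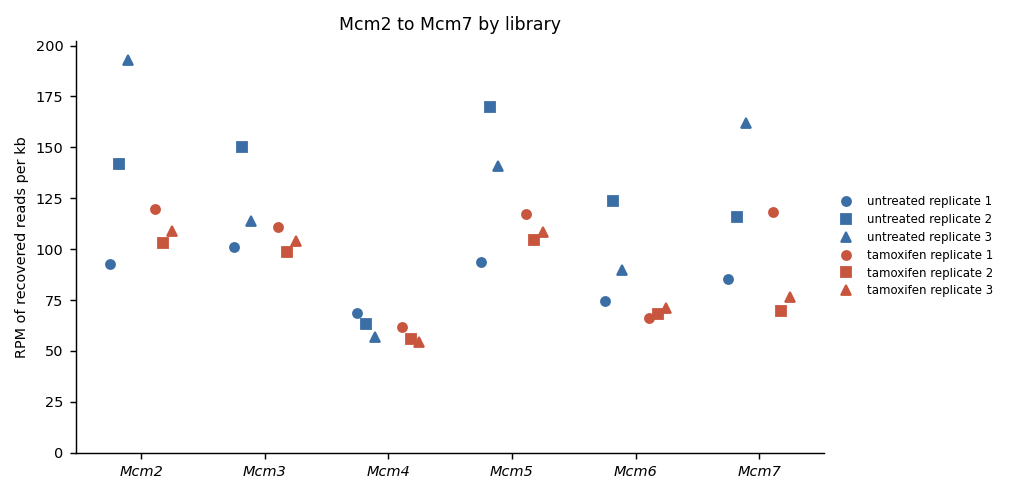
Recovered RPM per kb (y axis) for Mcm2 to Mcm7 (x axis) in the 6 libraries, blue untreated and red tamoxifen, with 1 symbol per replicate number. Untreated replicates 2 and 3 lie above all other libraries for Mcm2 and Mcm5, while untreated replicate 1 lies below the tamoxifen points for these 2 genes and within their range for Mcm7.

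Of the 4 tested partners that complete the helicase, 2 had lower and 2 had higher values. Gins4 had 2297, 2336 and 2101 in the untreated libraries and 1693, 2199 and 1898 after tamoxifen, overlapping at a single library (log2 fold change -0.22 ± 0.13, limma p 0.129). Gins1 was at -0.23, Cdc45 at 0.09 and Gins3 at 0.26, all with intervals across 0. Gins2 could not be measured, with 1, 0 and 2 reads in untreated and 1, 0 and 1 in tamoxifen libraries. Of its exon bases 67.3% are shared with Gse1 on the opposite strand.

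The smallest p of all members was that of Pold2, a subunit of polymerase delta, which extends the lagging strand. Of 9 polymerase and primase genes, 8 had lower values (median log2 fold change -0.18), and for 3 the tamoxifen values lay below all untreated ones, the delta subunits Pold1, Pold2 and Pold3 (beside 7.33% of all genes). On recovered reads this held for 5 of the 9, Pola2, Pold2, Pold3, Pole and Pole2 (beside 7.39%), and not for Pold1. Pold2, the regulatory subunit, had 7365, 6325 and 7159 in untreated libraries and 5273, 4844 and 5206 after tamoxifen. Every tamoxifen library lay below every untreated one by more than the spread within either group. The means were 6949.9 ± 551 and 5108 ± 231 (SD, n = 3), which is 73.5% of the untreated level, and the log2 fold change was -0.44 ± 0.10 (limma p 0.00469, adjusted p 0.295). On recovered RPM Pold2 was also apart, at 70.9, 112 and 97.7 against 60.2, 52.4 and 63.7 (log2 fold change -0.65, limma p 0.0133, adjusted p 0.418). Pold2 (ENSMUSG00000020471) lies on chromosome 11 from 5872180 to 5878292 of GRCm38.

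Pold1, the catalytic subunit, had 11015, 11016 and 12279 untreated and 10080.5, 7015 and 8437 after tamoxifen. The groups lay apart, with tamoxifen replicate 1 close to the untreated libraries, and the log2 fold change was -0.44 ± 0.15 (limma p 0.0279, adjusted p 0.492). On recovered reads the fold change was larger, at -0.73 (limma p 0.0411), but untreated replicate 1, at 123 RPM, lay below 2 of the tamoxifen libraries (138, 95.7 and 139). Pold3, an accessory subunit chosen for naming after its values were seen, had 2102, 10413 and 1946 untreated and 1635, 1819.8 and 1849 after tamoxifen. Untreated replicate 2 alone stood apart, also in RPM (86.9, 300.3 and 70.9 against 63.1, 66.9 and 66.1). The log2 fold change of -0.98 became -0.20 without that library.

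Pole2, a subunit of polymerase epsilon, had a log2 fold change of -0.46 (interval -0.98 to 0.06), and the catalytic subunit Pole was at -0.03. The polymerase alpha and primase genes lay between -0.18 (Pola1) and 0.10 (Prim2), with all intervals across 0.

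**Figure D3:**
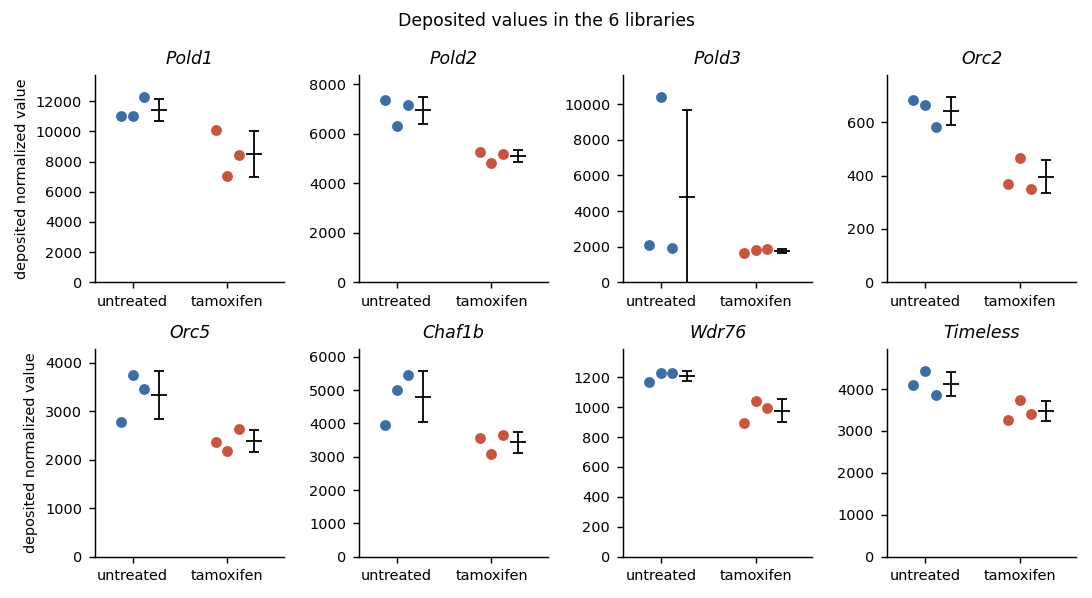
Deposited normalized values (y axis, linear from 0) of the 8 genes whose tamoxifen values all lay below the untreated ones, in each library, with the mean and SD of 3 libraries beside the points. The 2 groups are well apart for Pold2 and Orc2 and close for Orc5, Chaf1b and Timeless. For Pold3, 1 untreated library at 10413 carries the difference, and its SD bar runs below 0 and is cut at the axis.

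The clamp and its loader had 5 of 6 genes below 0, with a median of -0.13. Pcna, the sliding clamp that tethers the polymerases, had 6199, 9109 and 7219 untreated and 4719, 6129.9 and 7094 after tamoxifen. The groups overlap, since tamoxifen replicate 3 lay inside the untreated range, and the log2 fold change was -0.33 ± 0.21 (limma p 0.158, adjusted p 0.683). It was -0.18 without untreated replicate 2 and -0.17 without tamoxifen replicate 1. On RPM they lay just apart, at 133, 188 and 133 against 86.3, 114 and 127. The Rfc genes of the loader ran from -0.21 (Rfc3) to 0.02 (Rfc5).

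Rpa1, the large subunit of the single-strand binding complex, had 13683, 20592 and 11016 untreated and 8681, 13342 and 11250.0 after tamoxifen. These ranges overlap widely, with a log2 fold change of -0.42 ± 0.27 (limma p 0.173), and -0.17 without untreated replicate 2. On RPM they did not overlap (365, 515 and 419.8 against 313, 338 and 311). Rpa2, the flap endonuclease gene Fen1 and the ligase gene Lig1 were at -0.06, 0.02 and 0.12.

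Nucleotide supply was the one role in which most of the few genes lay above 0 on deposited values. Rrm2, the small subunit of ribonucleotide reductase, had 9109, 8311 and 8913 untreated and 9595, 9712 and 10082 after tamoxifen. All tamoxifen values were higher, and the log2 fold change was 0.16 ± 0.09 (limma p 0.138, adjusted p 0.660). On RPM its groups overlap, at 205, 235 and 238 against 266, 227 and 232. Rrm1, the large subunit, had 7785, 10647 and 9721 untreated and 10412, 9108 and 9420.4 after tamoxifen, with full overlap and a log2 fold change of 0.05 ± 0.15 (limma p 0.744). Tyms, the thymidylate synthase gene, was at -0.21 (interval -0.59 to 0.17).

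Chaf1b and Chaf1a, which encode subunits of the CAF-1 histone chaperone that packs new DNA into nucleosomes, had unlike values. Chaf1b had 3951, 5002 and 5448 untreated and 3561, 3075 and 3659 after tamoxifen. The groups lay apart, the means were 4800.5 ± 769 and 3432 ± 313 (SD, n = 3), and the log2 fold change was -0.48 ± 0.15 (limma p 0.0189, adjusted p 0.444). On RPM it was 82.5, 149 and 138 against 81.6, 68.0 and 81.7, so the 2 highest untreated libraries carried most of the gap (log2 fold change -0.63, limma p 0.0282, adjusted p 0.511). Chaf1a was at 0.02 with an interval from -0.30 to 0.34, and 52.5% of its exon bases are shared with Ubxn6 on the opposite strand. The difference between both genes was not tested.

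Of the fork protection genes, Timeless had 4106, 4428 and 3852 untreated and 3269, 3736 and 3416 after tamoxifen. Its groups lay apart by a small margin, with a log2 fold change of -0.25 ± 0.10 (limma p 0.0528, adjusted p 0.529). Tipin, the partner of Timeless and chosen for naming after its values were seen, had 10413, 36094 and 36091 untreated and 13342, 10227 and 12924 after tamoxifen. Untreated replicates 2 and 3 shared 1 step of the normalization far above the other 4 libraries. In RPM their excess was smaller, at 442 and 552 beside 296 in untreated replicate 1 and 366, 217 and 259 after tamoxifen. The log2 fold change was -0.98 on deposited values (limma p 0.0937), -0.61 on recovered reads and -1.58 without untreated replicate 1. Clspn, which carries the checkpoint signal, was at 0.00 (interval -0.34 to 0.34).

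Wdr76 had 1168, 1227 and 1226 untreated and 896, 1041 and 993 after tamoxifen. The spread within each group was small and the groups lay apart, with a log2 fold change of -0.31 ± 0.11 (limma p 0.0347, adjusted p 0.511) and -0.22 on recovered reads (limma p 0.235). The histone mRNA binding protein gene Slbp was at -0.26, and Dtl, which directs Cdt1 to degradation in S phase, was at -0.12. Both intervals crossed 0.

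Ordered by RPM per kb over all 6 libraries, Tipin led at 193, followed by Mcm2 (127), Mcm5 (122), Mcm3 (113), Rrm2 (107) and Mcm7 (105). These steps are smaller than the spread between untreated libraries, which was 69.7 (SD) for Tipin, 38.4 for Mcm5 and 38.7 for Mcm7. The lead of Tipin lies within its own spread. Pcna followed at 85.7, Mcm6 at 82.3 and Rpa1 at 74.3. At the bottom stood Clspn (7.28), Orc2 (6.88), Gins3 (4.55), Cdt1 (2.03) and Gins2 (0.0802). All 51 genes together took a share of all reads of 0.472% to 0.764% without tamoxifen and of 0.505% to 0.706% with it, and these ranges overlap.

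The direction of the median changed with the scaling of reads. On recovered reads scaled by the median ratio, 45 of 50 members lay below 0 with a median of -0.24, beside 51.2% and -0.01 over 11843 genes. At an unadjusted p under 0.05 there were 3 lower (Pold1, Pold2 and Chaf1b), which is 6% beside 3.55% of all genes (8.88% in either direction), and none was called by limma beside 8 of all genes (0.0676%). The groups lay apart for 15 members, all lower, which is 30% beside 7.39% of all genes lower and 7.63% higher. With reads scaled to the total count instead, an alternative added after the data were seen, 20 members lay below 0 and 30 above, with a median of 0.02. Compared with the median ratio, that scaling shifts every gene by the same constant, and the median of all genes moved to 0.25. Relative to that median the members stood at -0.23, as they did with the median ratio. This match follows from the shared constant, so it is no separate check of the members' position.

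The untreated libraries were not alike for these genes. Relative to each gene's mean over the 6 libraries, the members' median log2 value was -0.02, 0.16 and 0.02 in untreated replicates 1 to 3 and -0.11, -0.06 and -0.07 after tamoxifen. Untreated replicate 2 was the highest library for 24 of the 50 genes, and it is also the most deeply sequenced. Tamoxifen replicate 3, the next in depth at 5110226 reads, was the highest for 2. Whether depth bears on these counts was not tested. Without untreated replicate 2 the members' median was -0.11, close to -0.13 with all libraries, and 3 rather than 6 members had an unadjusted p under 0.05. That number was 9 without untreated replicate 1 and 4 without untreated replicate 3. The share of all genes at that p in these fits is not given here, so the numbers do not show a trait of the members. Over all genes, the count called also moved, from 34 to 103, 92 and 66 without untreated replicates 2, 1 and 3. Leaving out Tipin, Pold3 and Cdt1 gave a median of -0.12 over 47 genes, 34 of them lower.

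**Figure D4:**
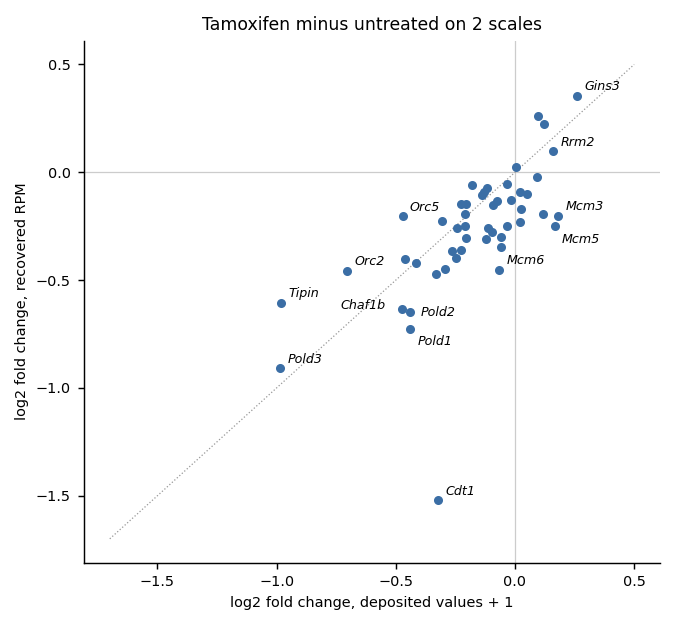
Log2 fold change of 50 replication and S phase genes on deposited values + 1 (x axis) and on recovered RPM (y axis). The dotted line marks equal values. Of the points, 37 lie left of 0 and 45 lie below 0. Mcm3 and Mcm5 are above 0 on the x axis and below 0 on the y axis, and Cdt1, at -0.32 and -1.52, rests on few reads.

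Promoter windows of 250 bases before to 50 after the annotated start were found in the RefSeq table for 42 of the 51 genes (51 windows). An E2F form was present in 17 of these windows (33.3%), beside 744 of all 32851 windows (2.26%). The 17 windows belong to 17 genes, 23 matches in all, of which 16 begin within 50 bases of the start. The form TTTGCCGC had no match in these genes. CCAAT was present in 54.9% of their windows beside 37.4% of all, and TTTGAA, searched as a cell cycle element of later phases, in 11.8% beside 17.9%. CCAAT and TTTGAA were searched on both strands too, and matches can share bases, as 2 E2F forms on opposite strands do in Mcm5 and Mcm6 and an E2F form and CCAAT do at 1 base in Mcm7. A match of letters is a description and not evidence of binding.

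The fold changes of genes with and without an E2F form overlapped. The 17 with a match had a median log2 fold change of -0.18, 12 of them lower, and the 25 with a window but no match had a median of -0.13, 18 of them lower. With lower values and an unadjusted p under 0.05 there was 1 of the 17 (Pold1) and 5 of the 25 (Orc2, Orc5, Pold2, Chaf1b and Wdr76), beside 3.99% of all genes. The difference between these sets was not tested.

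**Figure D5:**
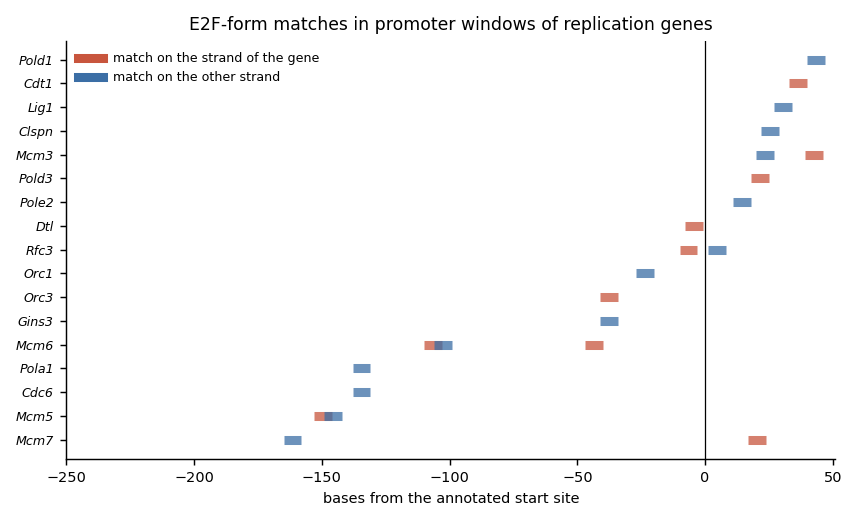
Positions of 23 E2F-form matches in the promoter windows of 17 replication genes, in bases from the annotated start site (x axis, start at the vertical line), red on the strand of the gene and blue on the other. Most matches lie within 50 bases of the start, while those of Cdc6, Pola1 and Mcm5, 2 of the 3 of Mcm6 and 1 of the 2 of Mcm7 lie farther upstream.

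Of the genes of the same pathways that are not among the 51, none was called on deposited values. Of 29 other replication genes tested, 21 were lower with a median of -0.13 and 6 had an unadjusted p under 0.05, all lower (20.7%, beside 3.99% of all genes). On recovered reads this was 1 of 27 (3.70%, beside 3.55%). With GC content and length trends removed from the reads it was 5 of 27 (18.5%, beside 5.50%). The 2 of smallest p were Mtbp, needed for origin firing (log2 fold change -0.54, limma adjusted p 0.290, and -0.30 by recovered reads), and Dbf4, the activator of the Cdc7 kinase (-0.45, adjusted p 0.363). Of 15 other genes of nucleotide supply 9 were lower, with a median of -0.14. Rrm2b, the alternative small subunit of ribonucleotide reductase, had 468, 487 and 515 untreated and 302, 351 and 234 after tamoxifen (-0.75, limma adjusted p 0.370), and was at -0.37 by recovered reads. Dctpp1, which clears abnormal dCTP, was at -0.28 (adjusted p 0.529) and at -0.58 by recovered reads.

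Of 25 genes of S phase chromatin and repair 19 were lower, with a median of -0.14. Ubr7 had 8564, 11249.8 and 9253 untreated and 6423, 5099 and 5781 after tamoxifen (log2 fold change -0.75, limma adjusted p 0.204). Brca1, of homologous recombination, had 3426, 2784 and 2958 before and 2131, 2102 and 2161 after (-0.51, adjusted p 0.245). On RPM the groups of both genes lay apart as well.

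The regulators of S phase entry, 23 genes, were split, with 11 lower and 12 higher and a median of 0.04. Rb1, the retinoblastoma gene that restrains E2F, had 575, 672 and 534 untreated and 1275, 905 and 915 after tamoxifen. All tamoxifen values were higher (log2 fold change 0.78 ± 0.19 SE, limma adjusted p 0.305). On recovered reads it was at 1.17 (adjusted p 0.138), and with GC content and length trends removed it was called higher, at 1.07 (adjusted p 0.0340). Tfdp2, an E2F partner, was at -0.48 (adjusted p 0.305) and, by recovered reads, at -0.13. E2f1 itself was at -0.10, with overlapping groups.

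Of the genes of G2 and mitosis, 11 of 24 were lower on deposited values, with a median of 0.01. On recovered reads 21 of 24 were lower with a median of -0.14, against -0.24 for the replication genes. Aurkb and Ccnb1, a mitotic kinase and the mitotic cyclin, had the smallest p of the list, with log2 fold changes of -0.30 (limma adjusted p 0.543) and -0.27 (adjusted p 0.612). Whether replication and mitotic genes differed was not tested.

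Summed levels of markers of other cell types did not overlap between the groups for 2 of 3 lists, while no single marker was called on deposited values. On recovered reads 1 endoderm marker was called. All 12 markers of primitive and visceral endoderm had log2 fold changes above 0, with a median of 1.25. Their summed level was 686 to 717 RPM untreated and 1261 to 1488 after tamoxifen. On deposited values 10 of the 12 had an unadjusted limma p under 0.05, beside 5.34% of all genes with higher values. For 11 of the 12 all tamoxifen values lay above all untreated ones, beside 7.92% of all genes. On recovered reads all 10 endoderm markers tested had an unadjusted limma p under 0.05 (beside 5.34%). Trophoblast markers summed to 61.2 to 116 before and 122 to 166 after, with 8 of 8 tested above 0. Of these 8, 4 had an unadjusted limma p under 0.05, and on recovered reads 1 of 5 did (beside 5.34% of all genes higher on either scale). The list held Krt8, Krt18 and Tfap2c with Cdx2, Eomes, Elf5, Hand1, Ascl2 and Plet1. Which of them carried the sum is not given here, so the sum does not by itself show trophoblast cells. Only 5 of the 9 genes in that list had at least 10 reads on average. Fibroblast markers summed to 426 to 499 before and 498 to 1019 after, ranges that overlap, with 6 of 8 tested above 0 and 2 below. Most of this level was Fn1 and Vim, which other cells express too. Lum was at 0 in all libraries and Postn in all untreated ones. The part of these markers in the values of the replication genes was not tested.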

How the data were processed

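Total RNA, depleted of ribosomal RNA, was sequenced from 3 untreated and 3 tamoxifen libraries. The deposited table gives a normalized signal per gene, and the submitters' processing notes name TopHat2, bedtools, DESeq2 and the build mm9 without versions. Annotation, counting rule and strand setting are not given in the sources used here. Each of the 100305 deposited signal values above 0 equals a constant (9.73) times k(m + 0.1)/(k + 0.1) with whole k and m, and k was taken as the reads of the gene (98.8% had 1 solution). Values therefore are not reads over 1 factor per library, as the planned test had assumed, and the planned log-scale test was kept. It was limma 3.58.1 (R 4.3.3) with an expression trend on log2(value + 1), over genes whose mean value was 10 or more, with Benjamini-Hochberg adjustment over all genes tested.

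Reads per 1000000 (RPM) were scaled by the median ratio over genes, and log2 of reads + 0.5, so scaled, was fitted for genes with at least 10 reads on average. Levels between genes are RPM per kb of the longest transcript. Symbols, coordinates and exons were looked up by Ensembl identifier in GENCODE vM21 (GRCm38), which held 20273 of the genes. All 6 value columns were matched to libraries by genotype and number in their names. Python 3.11.15, pandas 2.3.3, numpy 2.4.6 and matplotlib 3.10.9 were used, and the fits were tested on simulated data. Recovered counts span 2334418 to 5689696 per library, which limits the precision for genes of few reads.

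The members and gene lists were chosen with earlier results of these data known. Values per library are given for Mcm2 to Mcm7, Pcna, Rrm1, Rrm2, members with an unadjusted p under 0.05 and the member of smallest p in each role, and from the other lists for the 2 of smallest p each. Tipin, Pold3, Cdt1, Gins2 and E2f1 were named after their values were seen. Alternatives were the pseudocount, filters, scalings, trend, replicate block and leaving out each library.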

Additional observations from a re-analysis of the deposited data

How the results depend on the processing

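No replication gene was called under any of the 17 alternatives. Over all genes 34 were called, and this count was 52 with a pseudocount of 10, 84 with no filter, 15 for genes of 10 or more reads, 8 on recovered reads, 13 with total-count scaling, 21 with GC and length trends removed, 62 without the expression trend and 66 to 103 without 1 library each. With the replicate number as a block it was 0 on both deposited values and recovered reads, with 1393 and 937 genes at an unadjusted p under 0.05. Libraries of the same number did not vary together over all genes (correlations of -0.05 to 0.01 on deposited values and -0.08 to 0.08 on reads). With 3 libraries per group such correlations cannot show whether the numbers pair the samples. The members' median of -0.13 was -0.24 on recovered reads, a value that the replicate block cannot change. The median was -0.23 with GC and length trends removed, and -0.17 to -0.11 without 1 library each. It was 0.024 with total-count scaling. With GC and length trends removed, 8 of 50 members were lower at an unadjusted limma p under 0.05 (16%, beside 5.50% of all genes). Of the other pathway genes 1 was called with GC and length trends removed (Rb1). Among the members named by rule, 291 of 306 alternatives kept the direction and the side of the threshold. The filters, the fit without trend and the replicate block leave a gene's log2 fold change as it was. Under these its direction was fixed in advance, and the block on reads repeats the fold change of recovered reads. The count is therefore no measure of how robust the directions are. On recovered reads, after removal of GC and length trends, and with the block on reads, Mcm3 was at -0.20, -0.18 and -0.20, Mcm5 at -0.25, -0.22 and -0.25, and Rrm1 at -0.10, -0.21 and -0.10. With total-count scaling Orc5 was at 0.060, Mcm4 at 0.13, Wdr76 at 0.040 and Tfdp2 at 0.13. Mcm6 was at 0.11 without untreated replicate 2, and Rrm1 (0.05 with all libraries) ran from -0.079 without untreated replicate 1 to 0.15 without untreated replicate 2, with -0.0066 without tamoxifen replicate 1. Cdt1 ran from -2.68 without untreated replicate 2 to 1.88 without tamoxifen replicate 3, with 0.17 and 1.54 without untreated replicates 1 and 3. Against the median ratio on the same reads, total-count scaling adds 1 constant to the log2 fold change of every gene. The cause of the other shifts was not tested. Cdt1 and Gins2, with the fewest reads of the members, could not be followed, and why their reads were few was not tested.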

Other observations

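Further genes of these pathways had too few reads to follow. Topbp1, which helps to start replication, had deposited values of 9.73, 10.2 and 18.6 untreated and 0, 9.73 and 19.5 after tamoxifen. Asf1a, a histone chaperone, had 18.6, 76.9 and 36.3 untreated and 27.4, 0 and 0.885 after tamoxifen. Pclaf, a partner of Pcna, had 27.4, 18.6 and 54.0 untreated and 36.3, 27.4 and 28.7 after tamoxifen. Tk1, the thymidine kinase of S phase, was listed at 0 in all untreated libraries and in tamoxifen replicate 3. These genes and Gins2 were named after their values were seen.

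Of the 51 replication genes, 13 share annotated exon bases with another protein-coding gene. Beside Orc2, Chaf1a and Gins2, the share was 15.1% for Rfc2 (Lat2), 12.7% for Rfc4 (Eif4a2), 10.7% for Rfc5 (Wsb2) and 8.50% for Pole2 (Gm49384, on the same strand), and smaller for Mcm7, Orc6, Cdc45, Orc4, Lig1 and Fen1.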
